A study of Homo sapiens with 12 samples.

Results

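The genes described here are those that encode the proteins of the mitochondrial ribosome, taken as every gene whose platform symbol starts with MRPL (large subunit) or MRPS (small subunit), pseudogenes left out. All 76 such genes with a symbol on the platform were above background on all 12 arrays, 48 of the large and 28 of the small subunit, among 10529 genes tested. RNA came from HDLM-2, an established human Hodgkin lymphoma cell line, and was hybridised to Illumina HumanHT-12 V3 bead arrays. The groups were a control for which the labels name no drug or vehicle, 100 nM givinostat (a histone deacetylase inhibitor), 5 µM sorafenib (which blocks RAF and several growth factor receptor kinases) and both drugs at these doses, all at 24 hours. Each group had 3 arrays, named A, B and C, of this cell line alone. The labels do not say whether these came from separate cultures, so p-values measure only the spread between arrays, and the number of arrays limits the precision.

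Mitochondria keep their own ribosome, which translates the few messages of the mitochondrial genome, all for subunits of the oxidative phosphorylation complexes. Its ribosomal RNA is transcribed inside the organelle, whereas every one of its proteins is encoded in the nucleus, made in the cytosol and imported. Many of the proteins descend from bacterial ribosomal proteins, and the others were added during the evolution of mitochondria.

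The labelled cell type showed its markers: 10 of 10 Hodgkin Reed-Sternberg cell genes were above background on all 12 arrays. Of the mature B cell markers 0 of 5 with a probe were above background on every array and 3 were on none, of the T cell markers CD2 was on all arrays and 4 of 5 on none, of the myeloid markers CSF1R and ITGAM were on all arrays, and of the stromal markers 3 of 4 were on none. Signal differed between groups before normalisation. The mean intensity of an array ran from 1443 to 1630 in control, from 1270.3 to 1458 with givinostat, from 1034 to 1309 with sorafenib and from 1346 to 1462 with both drugs, and sorafenib array C, the lowest, stood apart from its group. The mean over the mitochondrial ribosomal protein probes ran from 6614 to 8440.3 in control, from 5061 to 6521 with givinostat, from 3958 to 5606 with sorafenib and from 5050.0 to 5681 with both drugs. The part of these differences in the results was not tested.

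Values under treatment differed between MRPL38 (lower with each drug), MRPL20 (passed against control only with the combination), MRPL46 (the largest fall) and MRPL40 (the largest positive value). MRPL40 passed in no contrast with control. Promoter sequences of these 4 members are shown. Each is the 250 bases before the gene's start in RefSeq (GRCh38.p14), read 5′ to 3′ along the gene, and capitals mark complete matches, on either strand, to the ETS factor motif CCGGAAG, the E-box CACGTG, or the NRF1 and YY1 consensus motifs, which are given by name alone. The windows lie at chr17:75904885-75905134, minus strand for MRPL38, at chr1:1407294-1407543, minus strand for MRPL20, at chr15:88467389-88467638, minus strand for MRPL46 and at chr22:19432295-19432544, plus strand for MRPL40.
MRPL38: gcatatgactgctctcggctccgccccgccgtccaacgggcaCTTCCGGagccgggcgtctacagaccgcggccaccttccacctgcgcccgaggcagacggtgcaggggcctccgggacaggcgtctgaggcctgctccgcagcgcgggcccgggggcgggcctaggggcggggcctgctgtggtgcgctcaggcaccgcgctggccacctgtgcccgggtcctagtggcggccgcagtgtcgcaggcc
MRPL20: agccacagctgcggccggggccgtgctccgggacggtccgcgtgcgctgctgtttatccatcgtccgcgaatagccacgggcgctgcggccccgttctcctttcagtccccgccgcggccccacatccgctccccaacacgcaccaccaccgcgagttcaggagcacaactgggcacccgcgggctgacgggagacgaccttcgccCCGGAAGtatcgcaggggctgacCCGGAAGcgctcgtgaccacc
MRPL46: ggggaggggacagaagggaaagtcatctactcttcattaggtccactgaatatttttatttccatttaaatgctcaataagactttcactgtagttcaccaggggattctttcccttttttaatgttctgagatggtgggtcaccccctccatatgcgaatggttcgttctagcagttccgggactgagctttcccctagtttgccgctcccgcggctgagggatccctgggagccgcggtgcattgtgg
MRPL40: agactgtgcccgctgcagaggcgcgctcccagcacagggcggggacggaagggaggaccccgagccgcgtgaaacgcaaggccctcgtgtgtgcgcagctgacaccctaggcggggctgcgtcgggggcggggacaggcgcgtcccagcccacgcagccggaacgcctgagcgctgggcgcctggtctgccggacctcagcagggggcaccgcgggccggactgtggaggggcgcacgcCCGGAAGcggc

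In these stretches MRPL20 held 2 ETS matches, MRPL38 and MRPL40 held 1 each, and MRPL46 held no complete match to the motifs in capitals. RefSeq windows from 250 bases before to 50 after the start were at hand for 68 of the 76 members. Across them 28 (41.2%) held an ETS match, against 19.7% of the promoters of all genes tested. A YY1 match was found in 13 members (19.1%), against 2.99% of the promoters of all genes tested. In 10 of these 13, MRPL38 and MRPL46 among them, it lay after the start, outside stretches like those printed. NRF1 matches were in 11.8% of members and 12.3% of genes tested, E-boxes in 8.82% and 10.2%, and the SP1 motif GGGCGG in 61.8% and 68.4%. The median log2 change with both drugs was -0.29 in the 28 members with an ETS match and -0.41 in the 40 without, and -0.41 in the members with and in those without a YY1 match. These matches describe letters only and show no binding.

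On the arrays the family as a whole stood lowest with both drugs. Measured as each gene's log2 deviation from its control mean, the median over the 76 genes was -0.033, 0.078 and -0.018 on control arrays A, B and C, -0.26, -0.20 and -0.34 with givinostat, -0.13, -0.13 and -0.17 with sorafenib, and -0.38, -0.40 and -0.37 with both drugs. The 4 groups did not overlap, in the order control, sorafenib, givinostat and combination from high to low, and control array B stood highest. Over all genes tested the same median stayed between -0.027 and 0.015 on every array. For the cytosolic ribosomal protein genes, which build the ribosome outside mitochondria, it stayed between -0.019 and 0.031. In bulk RNA of a cell line, a fall in some of the cells and a fall in all of them cannot be told apart.

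**Figure D1:**
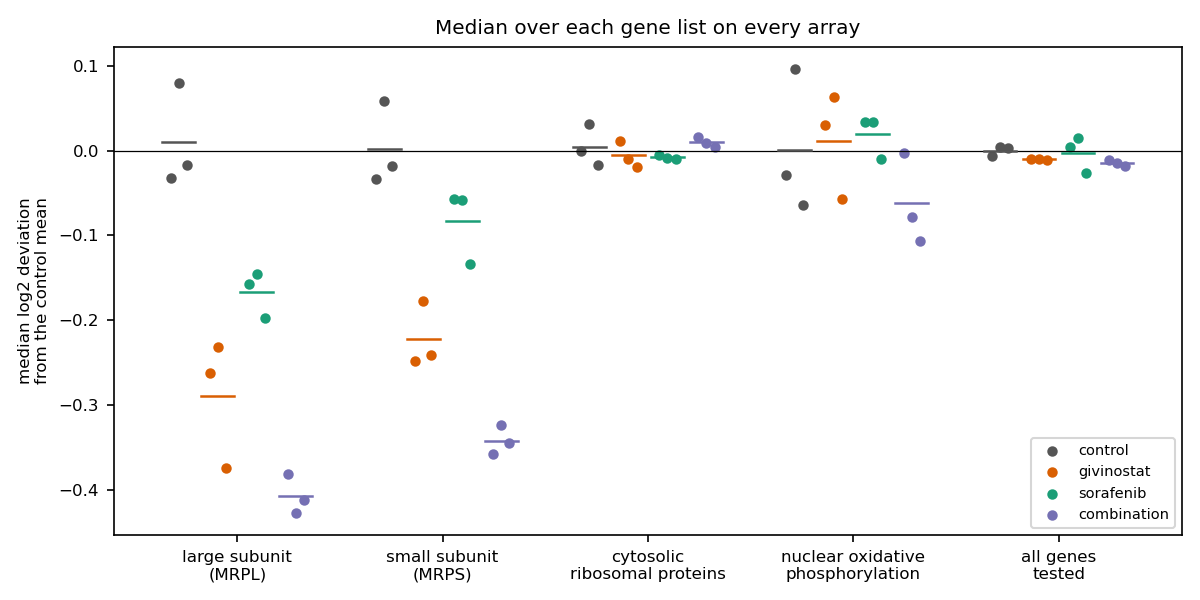
Median log2 deviation from the control mean (y axis) over each gene list (x axis) on every array. Points are arrays, coloured by group, and bars are the means of 3 arrays. For both subunits the 3 arrays with both drugs lie lowest, from -0.32 to -0.43, while the cytosolic ribosomal proteins stay between -0.019 and 0.031 in all groups.

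Givinostat alone lowered the RNA of 28 members and raised that of 0 (limma, adjusted p under 0.05 over all genes tested), 18 of 48 in the large and 10 of 28 in the small subunit. That is 36.8% of the family, against 15.7% of all genes tested that fell, while 17.6% rose and 33.3% passed in either direction. The median log2 change was -0.25 over the family and -0.017 over all genes, and 45 members had all 3 givinostat arrays below all 3 control arrays, where 24.2% of all genes did. Under median scaling of the arrays in place of quantile normalisation the family median was -0.40 and that of all genes -0.12. The falls were of 1.19-fold to 1.71-fold, all under 2-fold. Without control array B 18 members passed, and without sorafenib array C, which enters the shared spread, 31 fell and 2 rose, MRPL36 among the latter. Of all genes 3509 passed, and 2865 to 3881 with an array left out, the most without sorafenib array C.

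MRPL9, the counterpart of the bacterial large subunit protein L9, had the largest fall with givinostat. Its normalised log2 intensity was 10.58, 10.85 and 10.85 on control arrays A, B and C, 9.99, 10.02 and 9.96 with givinostat, 10.55, 10.61 and 10.72 with sorafenib and 10.08, 9.94 and 9.85 with both drugs. The arrays with givinostat, alone or in the combination, all lay below those without it, and the log2 change with givinostat was -0.77 ± 0.10, adjusted p = 1.44e-04 (± SE here and below, n = 3 arrays per group). MRPL16 encodes the counterpart of a bacterial protein beside the peptidyl transferase centre. It read 10.13, 10.09 and 10.31 on control arrays A, B and C, 9.51, 9.52 and 9.29 with givinostat, 9.68, 9.51 and 9.64 with sorafenib and 9.60, 9.57 and 9.76 with both drugs. All treated arrays lay below the control arrays. The mean was lowest with givinostat (-0.73 ± 0.10, adjusted p = 2.18e-04), whose arrays overlapped those of sorafenib. MRPS7, whose bacterial counterpart folds the head of the small subunit, read 10.75, 10.71 and 10.70 on control arrays A, B and C, 10.02, 9.91 and 10.14 with givinostat, 10.33, 10.44 and 10.36 with sorafenib and 10.09, 9.76 and 9.86 with both drugs. Control lay highest, sorafenib between, and the groups with givinostat lowest, overlapping each other, and the change with givinostat was -0.70 ± 0.10, adjusted p = 2.53e-04. MRPS15, the counterpart of a primary rRNA binding protein of the bacterial small subunit, read 13.11, 13.13 and 13.32 on control arrays A, B and C, 12.51, 12.60 and 12.61 with givinostat, 13.002, 12.90 and 12.92 with sorafenib and 12.54, 12.39 and 12.44 with both drugs. The same order held, with a change of -0.61 ± 0.088, adjusted p = 2.84e-04.

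The other falls with givinostat covered several roles. MRPL45, which anchors the ribosome at the inner membrane near the tunnel exit, read 11.64, 11.72 and 11.65 on control arrays A, B and C, 10.91, 11.17 and 11.02 with givinostat, 11.37, 11.32 and 11.33 with sorafenib and 11.01, 10.84 and 10.99 with both drugs. Control lay highest, sorafenib below it, and the groups with givinostat lowest, with a change with givinostat of -0.64 ± 0.09, adjusted p = 2.47e-04. MRPL11 of the stalk that recruits elongation factors changed by -0.62 ± 0.10. MRPS25, a small subunit protein without a bacterial counterpart, read 9.12, 9.005 and 8.91 on control arrays A, B and C, 8.47, 8.51 and 8.57 with givinostat, 9.21, 9.05 and 8.95 with sorafenib and 8.62, 8.52 and 8.67 with both drugs. Here the sorafenib arrays overlapped control, the other 2 groups overlapped each other, and the change with givinostat was -0.50 ± 0.095, adjusted p = 0.00177. MRPL10, the protein at the base of the stalk, passed narrowly (-0.30 ± 0.11, adjusted p = 0.0451), and its call was lost in 11 of 22 alternative settings. The 5 largest positive values, which did not pass, were those of MRPL53 (0.29, adjusted p = 0.0828), MRPL40, MRPL36 (0.27, adjusted p = 0.0594), MRPS6 and MRPL33. In 5 members, MRPL33, MRPL36, MRPL43, MRPL53 and MRPS6, all givinostat arrays lay above all control arrays, where 24.2% of all genes did so.

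**Figure D2:**
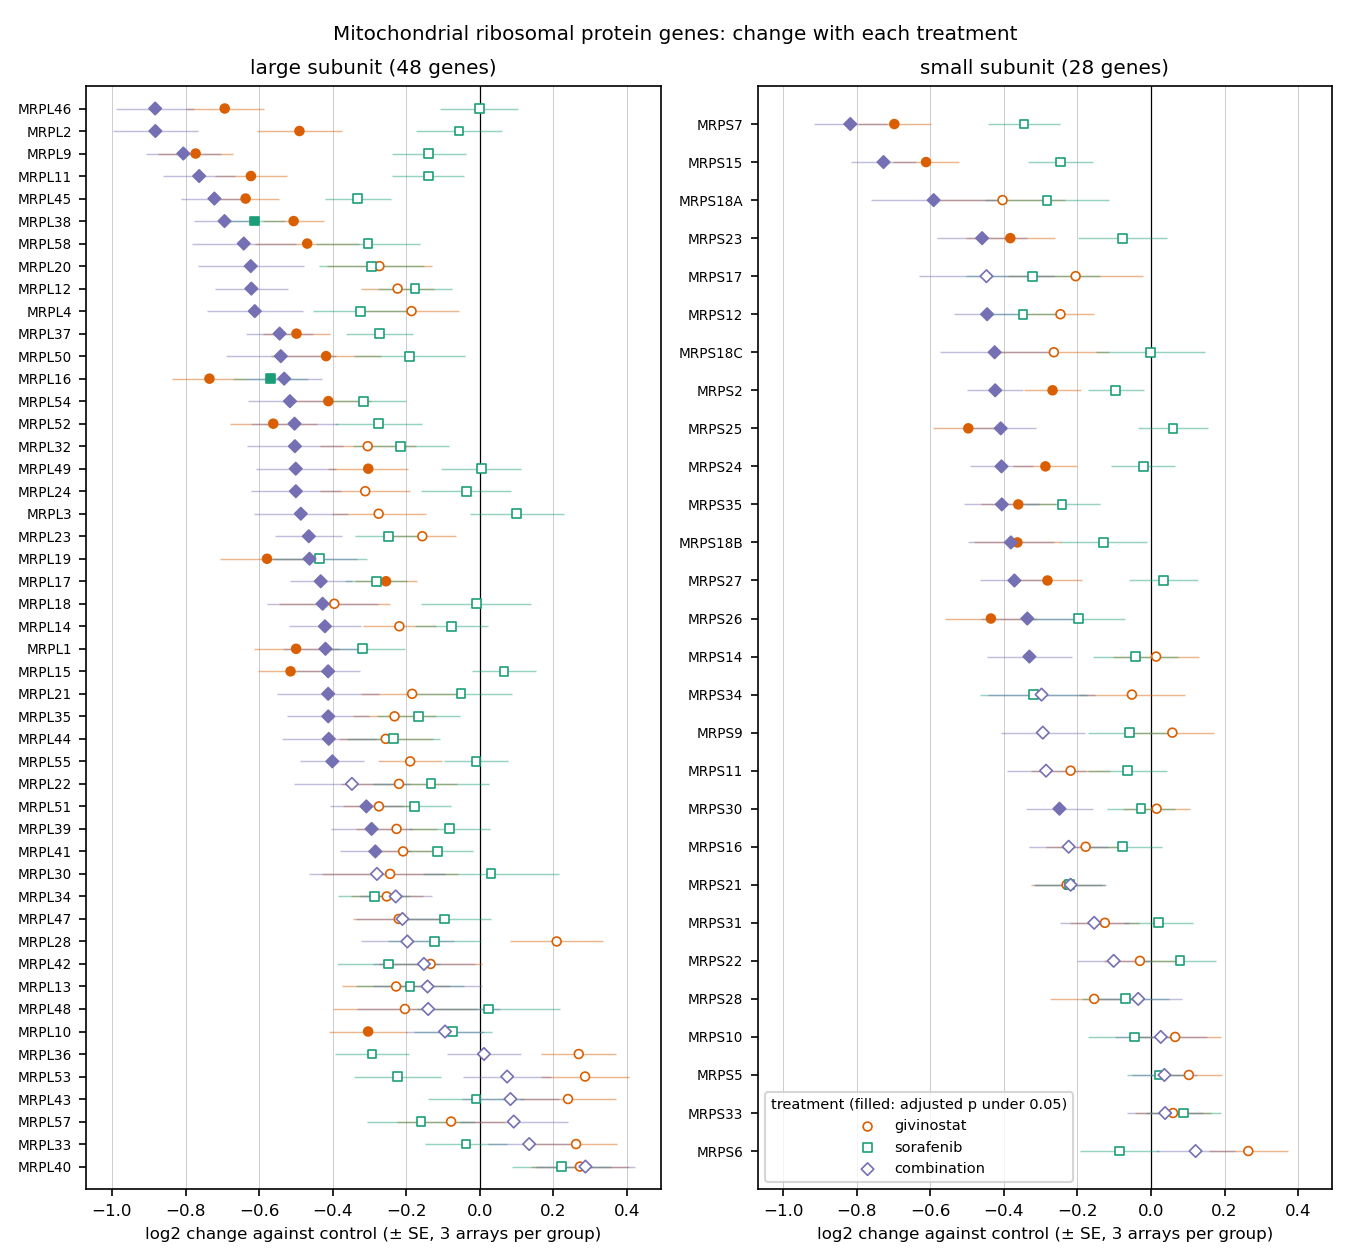
Log2 change against control (x axis, ± SE) of each member (y axis), large subunit left and small subunit right, ordered by the change with both drugs. Filled symbols passed at an adjusted p under 0.05: 28 members with givinostat (circles), 2 with sorafenib (squares) and 48 with the combination (diamonds), all of them below 0.

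Sorafenib alone lowered 2 members, MRPL38 and MRPL16, and raised 0, which is 2.63% of the family against 1.59% of all genes tested that fell, and 4.58% passed in either direction. The values were nevertheless mostly negative: 64 of 76 lay below 0, with a median of -0.13 against -0.0044 over all genes, and 22 had all sorafenib arrays below control, where 11.7% of all genes did. MRPL38, a protein of the central protuberance of the large subunit, read 9.95, 9.92 and 9.99 on control arrays A, B and C, 9.48, 9.40 and 9.46 with givinostat, 9.25, 9.34 and 9.43 with sorafenib and 9.27, 9.18 and 9.33 with both drugs. Each treated group lay below control on every array, and sorafenib overlapped both other treated groups. The change with sorafenib was -0.61 ± 0.083, adjusted p = 0.00251, and with givinostat it was -0.51 ± 0.083, adjusted p = 6.8e-04. MRPL16, whose values are given above, changed by -0.57 ± 0.10, adjusted p = 0.0126, a call lost without control array C, without sorafenib array B and when only control and sorafenib were fitted. Without sorafenib array C both calls held. A probe of MRPL11 other than the one used for the gene also fell with sorafenib (-0.44, limma, adjusted p over all probes 0.0194).

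Several members came close to the threshold with sorafenib. MRPS12, the counterpart of the bacterial decoding centre protein that streptomycin resistance mutations alter, read 13.62, 13.59 and 13.78 on control arrays A, B and C, 13.39, 13.47 and 13.40 with givinostat, 13.46, 13.27 and 13.23 with sorafenib and 13.27, 13.20 and 13.18 with both drugs. The sorafenib arrays lay below control and overlapped givinostat, and the change was -0.35 ± 0.091, adjusted p = 0.052. MRPL45 changed by -0.33 ± 0.09, adjusted p = 0.0579 and MRPS7 by -0.35 ± 0.10, adjusted p = 0.0699. Under median scaling the median of all genes was also lower, -0.17, beside -0.32 over the family. There 9 members passed with sorafenib, a count not set against a share of all genes.

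With both drugs 48 members fell and 0 rose, 63.2% of the family against 20.5% of all genes tested that fell, and 41.4% passed in either direction. They were 33 of 48 in the large subunit (68.8%) and 15 of 28 in the small (53.6%). The median log2 change was -0.41 over the family, and the falls ran from -0.25 to -0.88, that is from 1.19-fold to 1.84-fold, so that 0 members reached 2-fold. In 54 members all combination arrays lay below all control arrays, where 27.4% of all genes did, and in 0 members above them. Of the 28 that did not pass, 18 had a negative and 10 a positive value. Leaving out control array B left 37 calls, and leaving out sorafenib array C gave 49. Of all genes 4356 passed, and 3573 to 4702 with an array left out, the most without sorafenib array C.

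MRPL2, the counterpart of a bacterial protein needed for peptide bond formation, read 10.24, 10.47 and 10.06 on control arrays A, B and C, 9.74, 9.86 and 9.71 with givinostat, 10.09, 10.25 and 10.27 with sorafenib and 9.38, 9.24 and 9.51 with both drugs. The sorafenib arrays overlapped control, givinostat lay lower and the combination lowest without overlap, with a change of -0.88 ± 0.12, adjusted p = 1.05e-04. MRPL46, a protuberance protein without a bacterial counterpart, read 10.96, 11.21 and 11.22 on control arrays A, B and C, 10.34, 10.51 and 10.46 with givinostat, 11.21, 11.09 and 11.08 with sorafenib and 10.18, 10.41 and 10.14 with both drugs. Sorafenib alone left its mean at the control level, and the change with both drugs was -0.88 ± 0.11, adjusted p = 5.55e-05. MRPL38 changed by -0.69 ± 0.083, adjusted p = 5.45e-05, MRPL16 by -0.53 ± 0.10, adjusted p = 0.00142 and MRPL58, a peptidyl-tRNA hydrolase that is built into the large subunit, by -0.64 ± 0.14, adjusted p = 0.00336.

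The stalk proteins MRPL10, MRPL11 and MRPL12 bring elongation factors to the ribosome. MRPL11 read 12.77, 12.82 and 12.81 on control arrays A, B and C, 12.08, 12.14 and 12.30 with givinostat, 12.72, 12.74 and 12.50 with sorafenib and 12.14, 12.04 and 11.92 with both drugs. Arrays with givinostat lay below those without it, and the change with both drugs was -0.76 ± 0.10, adjusted p = 9.13e-05. MRPL12, which also binds the mitochondrial RNA polymerase, read 11.28, 11.15 and 11.48 on control arrays A, B and C, 11.05, 11.06 and 11.14 with givinostat, 11.05, 11.08 and 11.26 with sorafenib and 10.63, 10.73 and 10.70 with both drugs. The combination arrays lay below the other 9, and the change was -0.62 ± 0.10, adjusted p = 4.27e-04, whereas that with givinostat alone did not pass (-0.22 ± 0.10, adjusted p = 0.106). MRPL10 read 10.38, 10.22 and 10.46 on control arrays A, B and C, 10.18, 10.10 and 9.86 with givinostat, 10.15, 10.30 and 10.38 with sorafenib and 10.21, 10.29 and 10.27 with both drugs. The combination arrays overlapped control here (-0.094 ± 0.11, adjusted p = 0.509).

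MRPL45 at the inner membrane fell (-0.72 ± 0.09, adjusted p = 7.11e-05), as did MRPL23, the counterpart of a bacterial protein at the exit where chaperones dock. MRPL23 read 13.86, 13.80 and 14.09 on control arrays A, B and C, 13.72, 13.79 and 13.77 with givinostat, 13.63, 13.66 and 13.71 with sorafenib and 13.47, 13.38 and 13.49 with both drugs. Its combination arrays were the lowest of all, with a change of -0.46 ± 0.091, adjusted p = 0.00164. MRPL19, the counterpart of a bacterial protein at the subunit interface, read 9.83, 9.76 and 9.69 on control arrays A, B and C, 9.13, 9.13 and 9.28 with givinostat, 9.16, 9.31 and 9.50 with sorafenib and 9.39, 9.02 and 9.49 with both drugs. All treated groups lay below control, with overlaps among them, and the change with both drugs was -0.46 ± 0.13, adjusted p = 0.0124.

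MRPL20, the counterpart of a protein that bacterial large subunit assembly needs, read 12.57, 12.87 and 12.49 on control arrays A, B and C, 12.40, 12.47 and 12.24 with givinostat, 12.48, 12.44 and 12.11 with sorafenib and 12.26, 11.89 and 11.90 with both drugs. The combination arrays lay below control and overlapped both single drugs (-0.62 ± 0.14, adjusted p = 0.00446). All arrays of each single drug also lay below control, without passing (givinostat -0.27, adjusted p = 0.166, sorafenib -0.29, adjusted p = 0.259). The gene's other probe gave -0.64 with sorafenib (limma, adjusted p over all probes 0.0501) and -0.46 with both drugs (0.0369).

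MRPL3 and MRPL44 are genes in which mutations cause cardiomyopathy. MRPL3 read 14.24, 14.24 and 14.35 on control arrays A, B and C, 13.97, 14.09 and 13.94 with givinostat, 14.41, 14.08 and 14.64 with sorafenib and 13.75, 13.90 and 13.72 with both drugs. The combination arrays lay lowest without overlap, sorafenib spread widely around control, and the change with both drugs was -0.49 ± 0.13, adjusted p = 0.00942. MRPL44 read 9.96, 10.13 and 10.02 on control arrays A, B and C, 9.77, 9.74 and 9.83 with givinostat, 9.46, 9.91 and 10.03 with sorafenib and 9.57, 9.63 and 9.67 with both drugs. The combination lay below control and givinostat, within the wide spread of sorafenib, and the change was -0.41 ± 0.13, adjusted p = 0.0221. MRPL41, without a bacterial counterpart, read 12.27, 12.31 and 12.56 on control arrays A, B and C, 12.16, 12.13 and 12.23 with givinostat, 12.23, 12.37 and 12.20 with sorafenib and 12.04, 12.10 and 12.15 with both drugs. The groups were close, the combination below control but overlapping givinostat, with a change of -0.28 ± 0.10, adjusted p = 0.0333. The call for MRPL44 was lost without control array B and without combination array A or B, and that for MRPL41 without control array C and without any 1 of the combination arrays.

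**Figure D3:**
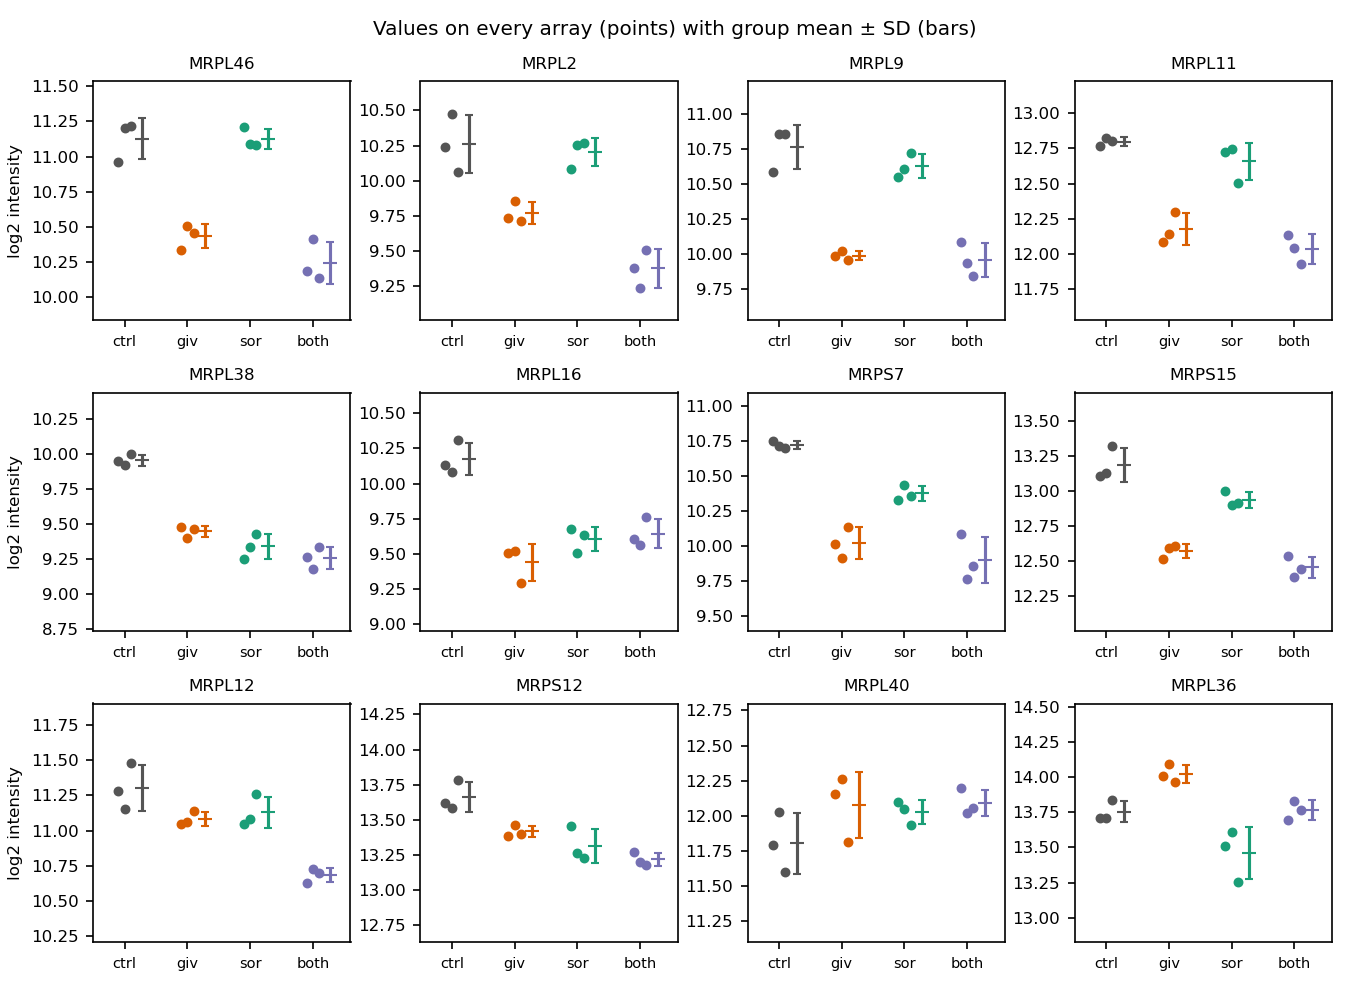
Normalised log2 intensity (y axis) of 12 members on every array (points) by group (x axis: control, givinostat, sorafenib, both drugs), with group mean ± SD (n = 3 arrays). Each panel spans the same height of 1.7 log2 units. MRPL46, MRPL9, MRPL11 and MRPS15 separate by givinostat, MRPL38 and MRPL16 are lower in every treated group, and MRPL40 overlaps in most groups.

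In the small subunit MRPS7 (-0.82 ± 0.10, adjusted p = 5.79e-05) and MRPS15 (-0.73 ± 0.088, adjusted p = 5.92e-05) had the largest falls with both drugs. MRPS12 of the decoding centre changed by -0.45 ± 0.091, adjusted p = 0.00216. Its other probes, for other transcripts of the gene, gave -0.67 and -0.98. MRPS2, a protein that joins late in bacterial small subunit assembly, read 10.29, 10.26 and 10.25 on control arrays A, B and C, 9.95, 9.98 and 10.07 with givinostat, 10.22, 10.13 and 10.16 with sorafenib and 9.84, 9.88 and 9.81 with both drugs. Control and combination arrays were far apart with a narrow spread, and the change was -0.42 ± 0.077, adjusted p = 9.6e-04. MRPS14, a counterpart of a bacterial head protein, read 8.86, 8.99 and 8.71 on control arrays A, B and C, 8.93, 8.91 and 8.75 with givinostat, 8.79, 8.75 and 8.89 with sorafenib and 8.28, 8.63 and 8.65 with both drugs. Only the combination arrays lay below the rest, and its call (-0.33 ± 0.12, adjusted p = 0.038) was lost in 6 of 22 alternative settings. MRPS9, also of the head, read 11.95, 12.18 and 12.14 on control arrays A, B and C, 11.99, 12.35 and 12.11 with givinostat, 11.93, 12.08 and 12.09 with sorafenib and 11.94, 11.71 and 11.74 with both drugs. The combination arrays lay below control and givinostat and overlapped sorafenib, but the change did not pass (-0.29 ± 0.11, adjusted p = 0.0572).

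There are 3 human paralogs of a single bacterial small subunit protein, S18, and all 3 passed with both drugs. Without control array B all 3 calls were lost, and that of MRPS18C was lost in 7 of 22 alternative settings. MRPS18A, which structures place in the large subunit, read 8.995, 9.33 and 9.20 on control arrays A, B and C, 8.603, 8.86 and 8.85 with givinostat, 9.15, 9.10 and 8.43 with sorafenib and 8.61, 8.53 and 8.62 with both drugs. Sorafenib array C lay far below arrays A and B, and the change with both drugs was -0.59 ± 0.17, adjusted p = 0.0149. MRPS18B read 12.34, 12.44 and 12.56 on control arrays A, B and C, 12.07, 11.87 and 12.31 with givinostat, 12.37, 12.18 and 12.41 with sorafenib and 12.05, 12.02 and 12.13 with both drugs. The combination arrays lay below control and overlapped givinostat (-0.38 ± 0.12, adjusted p = 0.0213). MRPS18C read 13.76, 13.99 and 13.43 on control arrays A, B and C, 13.60, 13.56 and 13.24 with givinostat, 13.84, 13.78 and 13.56 with sorafenib and 13.35, 13.40 and 13.16 with both drugs. The combination arrays lay below control and overlapped givinostat, and control spread widely (-0.42 ± 0.15, adjusted p = 0.0372).

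MRPS30, likewise found in the large subunit in structures, read 12.65, 12.64 and 12.76 on control arrays A, B and C, 12.61, 12.66 and 12.84 with givinostat, 12.58, 12.77 and 12.63 with sorafenib and 12.44, 12.49 and 12.38 with both drugs. Only the combination arrays lay below the rest. The change with both drugs was -0.25 ± 0.092, adjusted p = 0.0471, a call lost in 12 of 22 alternative settings. MRPS16 and MRPS22 are genes in which mutations cause mitochondrial translation disorders, and neither passed in any of the contrasts tested. MRPS16 read 10.89, 10.98 and 10.82 on control arrays A, B and C, 10.73, 10.79 and 10.64 with givinostat, 10.81, 10.94 and 10.71 with sorafenib and 10.51, 10.87 and 10.63 with both drugs. The combination overlapped control, and the change with both drugs was -0.22 ± 0.11, adjusted p = 0.115. MRPS22 read 12.22, 12.39 and 12.24 on control arrays A, B and C, 12.24, 12.30 and 12.21 with givinostat, 12.46, 12.40 and 12.23 with sorafenib and 12.34, 12.09 and 12.12 with both drugs. The groups overlapped, with combination array A among the control values, and the change was -0.10 ± 0.10, adjusted p = 0.441.

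The 10 members with a positive value with both drugs were MRPL33, MRPL36, MRPL40, MRPL43, MRPL53, MRPL57, MRPS5, MRPS6, MRPS10 and MRPS33. MRPL40, a protuberance protein whose gene lies in the region lost in the chromosome 22 deletion syndrome, had the largest. It read 11.79, 12.02 and 11.60 on control arrays A, B and C, 12.16, 12.26 and 11.81 with givinostat, 12.10, 12.05 and 11.93 with sorafenib and 12.20, 12.02 and 12.06 with both drugs. The control arrays overlapped those of givinostat and of the combination, and the change with both drugs was 0.29 ± 0.13, adjusted p = 0.105. MRPL36, the counterpart of the smallest bacterial large subunit protein, read 13.71, 13.71 and 13.84 on control arrays A, B and C, 14.01, 14.09 and 13.97 with givinostat, 13.51, 13.61 and 13.26 with sorafenib and 13.69, 13.83 and 13.77 with both drugs. Givinostat lay above control and sorafenib below it, and the combination overlapped control (0.011 ± 0.10, adjusted p = 0.94).

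Adding sorafenib to givinostat gave 0 calls among members (limma, with 13 at an unadjusted p under 0.05, 17.1% of members and also 17.1% of all genes), where 1.34% of all genes passed, 0.494% lower and 0.845% higher. The median was -0.12, 60 of 76 values lay below 0, and 17 members had all combination arrays below all givinostat arrays, where 13.5% of all genes did. The smallest adjusted p-values belonged to MRPL12 (-0.40 ± 0.10, adjusted p = 0.0775) in the large subunit and MRPS9 (-0.35 ± 0.11, adjusted p = 0.146) in the small. Averaged over both backgrounds, a contrast added after the data were seen, sorafenib lowered 7 members and raised 0, against 3.76% of all genes that fell and 4.85% that rose. They were MRPL38 (-0.40 ± 0.059, adjusted p = 0.00229), MRPL4, MRPL12, MRPL17, MRPL23, MRPL36 and MRPS12 (-0.27 ± 0.065, adjusted p = 0.0235). Only MRPL38 held in all 21 alternative settings, and without givinostat array B it was the only member of these 7 left.

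Adding givinostat to sorafenib lowered 22 members (28.9%, against 17.5% of all genes) and raised MRPL36 (0.30 ± 0.10, adjusted p = 0.0348), where 17.8% of all genes rose. Under median scaling 10 members passed, a count not set against a share of all genes. Of the 23 calls, 10 held in all 22 alternative settings. The rise of MRPL36 was lost in 8 of 22 alternative settings, and without sorafenib array C 25 members fell and 0 rose. The median was -0.22, and 36 members had all combination arrays below all sorafenib arrays, where 23.8% of all genes did. MRPL46 had the largest fall (-0.88 ± 0.11, adjusted p = 7.81e-05), followed by MRPL2 (-0.83 ± 0.12, adjusted p = 2.38e-04) and MRPL9 (-0.67 ± 0.10, adjusted p = 3.82e-04). MRPL38 and MRPL16, the members that sorafenib alone lowered, had values of -0.081 ± 0.083, adjusted p = 0.484, and 0.036 ± 0.10, adjusted p = 0.812. The sorafenib arrays by which these members were picked are also the baseline here, so their values are not independent of that choice.

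The effect of givinostat could be read from separate sets of arrays, without and with sorafenib. Across the 76 members the log2 changes had a Pearson correlation of 0.64 between these sets, and 0.83 across all genes tested. Genes of a family are no independent replicates, and quantile normalisation was shared. Of the members, 15 fell in both, 53.6% of the 28 and 68.2% of the 22, where the shares over all genes were 67.8% and 60.6%. Both values were below 0 in 55 of 76 members and in 4243 of all 10529 genes. For sorafenib, without and with givinostat, the correlation was 0.037 across members and 0.35 across all genes, and 52 members and 3395 of all genes were below 0 in both.

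**Figure D4:**
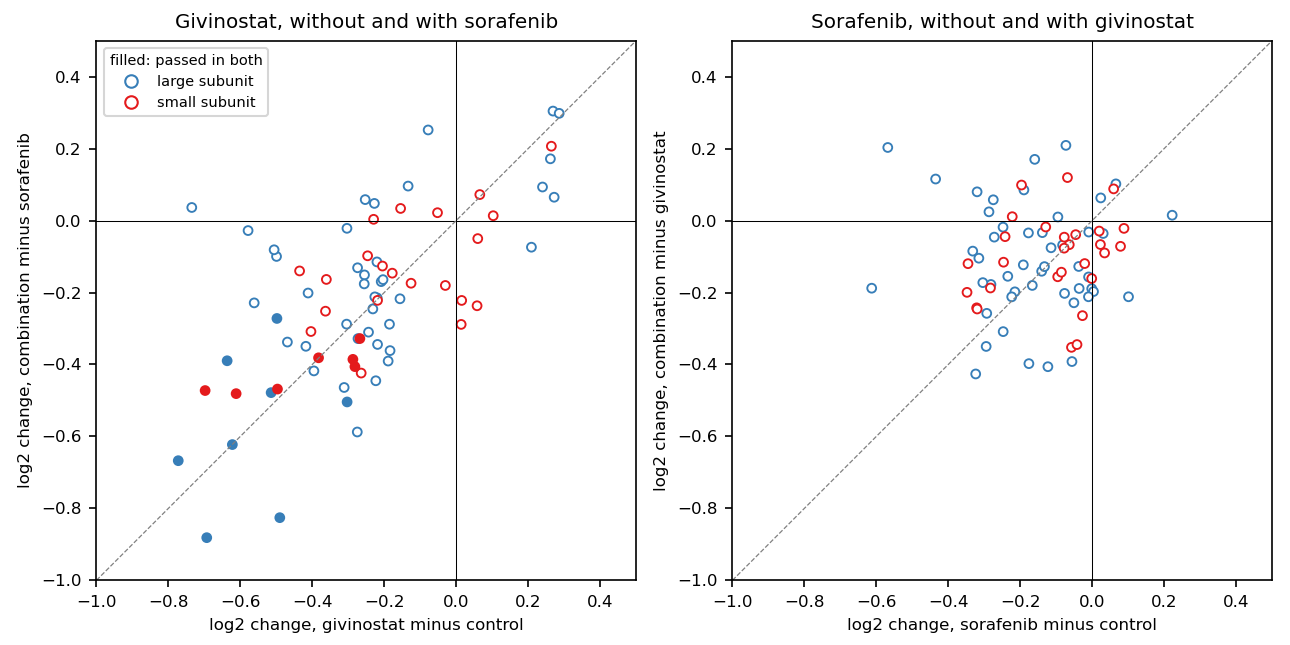
Log2 change of each member with givinostat (left) and with sorafenib (right), without the other drug on the x axis and with it on the y axis. The x and y values rest on different arrays, the dashed line marks equality, and filled points (15, left) passed in both.

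The interaction, which sets the combination's log2 change against the single-drug changes added together, was called for 0 members (limma, with 5 at an unadjusted p under 0.05, 6.58% of members against 10.9% of all genes) and for 2 of all genes (0.019%, with 0.0095% in each direction, lower and higher). MRPL16 had the largest value: its single changes summed to -1.30 and the combination gave -0.53, an interaction of 0.77 ± 0.14, adjusted p = 0.123. For MRPL38 the sum was -1.12 and the combination -0.69 (0.42 ± 0.12, adjusted p = 0.275). For MRPL2 the sum was -0.55 and the combination -0.88 (-0.34 ± 0.16, adjusted p = 0.487).

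The large and small subunits were set side by side. The median of the large minus that of the small subunit was -0.031 with givinostat, -0.090 with sorafenib and -0.087 with both drugs, where this difference varied between arrays of a group with an SD of 0.038. On the arrays it was 0.0012, 0.020 and 0.0012 in control, -0.014, -0.055 and -0.13 with givinostat, -0.10, -0.088 and -0.065 with sorafenib, and -0.024, -0.10 and -0.067 with both drugs. All 9 treated arrays lay below the 3 control arrays, and the treated groups overlapped. Each value is a deviation from the mean of the same 3 control arrays, so the 9 treated values are not separate observations. Without control array C the difference of medians was -0.077 with givinostat and -0.15 with both drugs. With MRPS30 and MRPS18A counted in the large subunit, 35 of 50 large and 13 of 26 small subunit genes fell with both drugs. The share of all genes tested that fell with both drugs, here and for the counts that follow, was 20.5%. Of large subunit genes 19 of 28 with a bacterial counterpart fell and 14 of 20 without one. In the small subunit 7 of 16 with a counterpart fell and 8 of 12 without, where MRPS18A and MRPS18B were counted as without one. Counted with the S18 family instead, a choice made after the data were seen, the split was 9 of 18 and 6 of 10.

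Genes that act with the mitochondrial ribosome were counted in the same fit. Of 23 tested factors that assemble it 16 fell with both drugs (69.6%) and 0 rose, with a median of -0.55. Over all genes tested 20.5% fell and 20.9% rose with both drugs. RCC1L, which acts in large subunit rRNA maturation, changed by -1.20 ± 0.14, adjusted p = 3.82e-05, and ERAL1, which chaperones the small subunit rRNA, by -0.71 ± 0.082, adjusted p = 4.45e-05. The helicase DDX28 changed by -0.98 ± 0.12 and the pseudouridine synthase TRUB2 by -1.26 ± 0.16. Of 12 translation factors 8 fell and 1 rose: the elongation factors TSFM (-0.77 ± 0.11) and GFM1 (-0.35 ± 0.083) and the translational activator TACO1 (-0.47 ± 0.10) fell, and the initiation factor MTIF3 rose (0.45 ± 0.10, adjusted p = 0.00354). With givinostat alone 11 assembly factors fell and 1 rose, and 4 translation factors fell, where 15.7% of all genes fell and 17.6% rose. Of 3 ribosomal proteins with other symbols GADD45GIP1 of the large subunit fell (-0.88 ± 0.23, adjusted p = 0.00897), and CHCHD1 (-0.34 ± 0.14, adjusted p = 0.0623) and the GTP-binding protein DAP3 (-0.23 ± 0.11, adjusted p = 0.096) of the small subunit did not pass.

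Of 17 genes of mitochondrial DNA and RNA synthesis 8 fell with both drugs and 2 rose, where 20.5% of all genes fell and 20.9% rose. The mitochondrial transcription factor TFB2M changed by -1.06 ± 0.10, adjusted p = 7.09e-06, the replicative helicase TWNK by -1.45 ± 0.19, adjusted p = 1.03e-04, the RNA helicase SUPV3L1 by -0.90 ± 0.16 and the messenger stabiliser LRPPRC by -0.57 ± 0.10. Of 8 regulators of mitochondrial gene programmes 4 fell and 1 rose. The coactivator PPRC1 (-0.90 ± 0.11, adjusted p = 4.66e-05), the GABP subunit GABPB1 (-0.55 ± 0.092) and MYC (-0.36 ± 0.11) fell, and the nuclear receptor ESRRA rose (0.39 ± 0.087, adjusted p = 0.00355). Of 70 nuclear subunits of oxidative phosphorylation, the complexes that mitochondrial translation completes, 15 fell (21.4%, against 20.5% of all genes) and 4 rose, with a median of -0.062. NDUFB1 (-1.23 ± 0.15), NDUFS3 (-0.51 ± 0.084), CYC1 (-0.83 ± 0.14) and ATP5MC1 (-0.97 ± 0.15) were among those that fell. Of 75 cytosolic ribosomal protein genes 4 fell, RPL29, RPS21, RPL34 and RPL36A, and 4 rose (5.33% in each direction), with a median of 0.015.

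**Figure D5:**
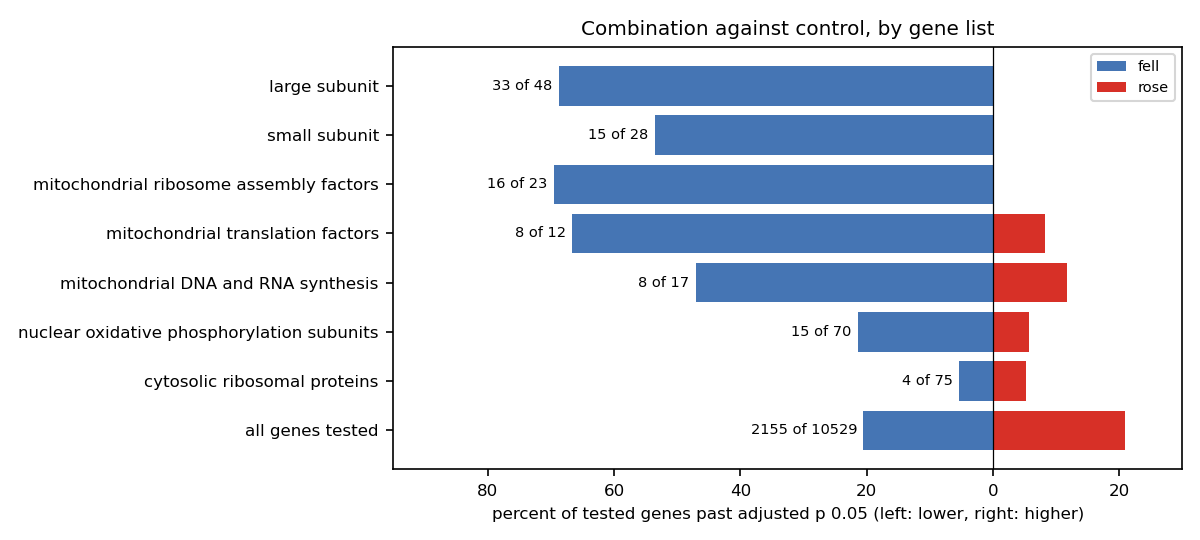
Percent of tested genes (x axis) that fell (left of 0) or rose (right of 0) with both drugs against control, at an adjusted p under 0.05, for each gene list (y axis). Labels give the number that fell of the number tested: 33 of 48 large and 15 of 28 small subunit genes, 4 of 75 cytosolic ribosomal protein genes and 2155 of 10529 genes in all.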

How the data were processed

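Total RNA of HDLM-2 cells was labelled with biotin and hybridised to 12 arrays, 3 in each of 4 groups taken from the sample titles. The deposited non-normalized file holds a bead-averaged intensity per probe for 48803 probes, read with BeadStudio per the submitters' processing notes, which give no version. Beside it the authors deposited a fraction from 0 to 1 headed as a detection p-value. Because this value increased with brightness (Spearman correlation at least 0.992 on each array), 1 minus it was taken as the p-value. The authors' processed table holds linear intensity and was used only as an alternative.

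Intensities were background-corrected (normal-exponential method, background from the detection p-values, offset 16), quantile normalised and put on the log2 scale with limma 3.58.1 in R 4.3.3 (statmod 1.5.0 and release 1.17.8 of data.table, with Python 3.11.15, pandas 2.3.3 and matplotlib 3.10.9 for promoters and plots). A probe was kept if its detection p was below 0.05 throughout 1 or more groups (16927, of which 14039 had 1 symbol in the platform annotation), symbols were updated through gene identifiers, and the brightest probe stood for a gene, which left 10529 genes. Apart from the choice of the brightest probe, no probe's level was set against another's. Group means were fitted over all 12 arrays with limma's moderated test (8 residual and 4.04 prior degrees of freedom), two-sided, adjusted by Benjamini-Hochberg over all genes, and called at 0.05. The script was tested on simulated data.

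Members named with values on every array were those with the 4 largest changes among called members, the 3 smallest p-values per subunit, and a set chosen for role (MRPL3, MRPL10 to MRPL12, MRPL36, MRPL41, MRPL44, MRPL45, MRPS12, MRPS16, MRPS18A to MRPS18C, MRPS22 and MRPS30). MRPL20 and MRPL40 were added after their values were seen. The 4 smallest p-values with both drugs stood for other lists. The members and lists were chosen with earlier results of these data known. Members are not replicates, so no p-value was computed over them. The alternatives were other background, normalisation, filter, probe and weighting choices, the array letter as a block, fits of the compared groups only, and each array left out in turn. Deviations of arrays sharing a letter correlated from -0.059 to 0.25 (median 0.033), and those of different letters from -0.24 to 0.12 (median -0.021). The labels do not say what the letters stand for, and they entered only the alternative fit with a block.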

Additional observations from a re-analysis of the deposited data

How the results depend on the processing

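With arrays left out in turn, the number of members called ran from 18 to 33 for givinostat, 1 to 3 for sorafenib, 37 to 49 for the combination, 16 to 25 for the combination against sorafenib and 1 to 6 for sorafenib averaged over both backgrounds, and was 0 throughout for the combination against givinostat and the interaction. The difference of subunit medians ran, in the order givinostat, sorafenib, combination, combination against givinostat, combination against sorafenib, interaction and averaged sorafenib, from -0.077 to -0.030, -0.0997 to -0.065, -0.15 to -0.060, -0.062 to 0.024, -0.052 to -0.0061, -0.022 to 0.090 and -0.059 to -0.016. With sorafenib 9 members passed under median scaling, 6 without background correction and with the authors' values, 4 among probes detected on all arrays and 1 in a fit of the compared groups only. For the combination against givinostat 1 passed without background correction, with the authors' values, with mean probes and with array weights. For the combination against sorafenib 10 passed under median scaling, and for averaged sorafenib 1 without a detection filter. The subunit difference moved to -0.145 (combination, median scaling), 0.011 and 0.028 (combination against givinostat and against sorafenib, mean probes) and 0.074 (interaction, array weights). Without background correction 4 members rose and 35 fell with givinostat. Why these counts moved was not tested. Median scaling shifted the median of all genes to -0.12 (givinostat), -0.17 (sorafenib) and -0.085 (combination). In all settings 15 of 28 givinostat, 1 of 2 sorafenib and 33 of 48 combination calls held.

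With the array letter as a replicate block the counts were 28, 2, 48, 0, 23, 0 and 7, in the order above, but the genes were not all the same. For givinostat MRPL10, MRPL17 and MRPL49 were lost and 3 others gained, for the combination MRPL18 and MRPS30 were lost and 2 gained, for the combination against sorafenib MRPL18 was lost and 1 gained, and for averaged sorafenib MRPL17 was lost and 1 gained. Over all genes the sorafenib count was 482, and 214 without a detection filter, 75 in a fit of the compared groups and as low as 164 with an array left out. Against givinostat it was 141, and 32 (without givinostat array A) to 358 under other settings, and the interaction count was 2, and 0 to 8. For averaged sorafenib it was 907, 514 under median scaling, 524 without a detection filter and 592 without control array C.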

Other observations

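Several members share a promoter region with a gene that runs the other way. With RefSeq starts, 25 of 68 members had such a neighbour within 1000 bases. In 1 case both genes were members: MRPL46 and MRPS11 start 320 bases apart. MRPL46 fell with both drugs (-0.88, adjusted p = 5.55e-05), and MRPS11, a counterpart of a bacterial protein of the small subunit platform, did not pass (-0.29, adjusted p = 0.0505), although its other probe gave -0.37 and passed. Of 16 tested neighbours that were not members 6 fell with both drugs and 0 rose (37.5%, against 20.5% of all genes that fell), with a median of -0.25 beside -0.43 for their 16 members. In 4 pairs both genes fell: MRPS7 (-0.82) with the trafficking adaptor GGA3 (-0.45), MRPS12 (-0.45) with the mitochondrial seryl-tRNA synthetase SARS2 (-0.45, adjusted p = 0.0333), MRPL32 (-0.50) with the proteasome subunit PSMA2 (-0.39), and MRPL54 (-0.52) with APBA3 (-0.39). The member fell in 14 of the 16 pairs, and the neighbour fell with it in only 4 of them. MRPL57, which did not pass (0.093), lies beside SKA3, a kinetochore gene that fell (-0.55). MRPL30 (-0.28) did not pass either, and its neighbour MITD1 fell (-0.45). MRPL14 (-0.42) and MRPS2 (-0.42) fell beside TMEM63B (0.34) and PIERCE1 (0.36), which did not pass.

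Probes of the same member were compared. Of 23 members with several detected probes 10 had all probes called with both drugs, 5 had some, and 0 had calls in opposite directions. With givinostat 3 had all probes called and 6 had some, and with sorafenib 0 and 1. For the combination against sorafenib 4 had all and 7 had some. With both drugs signs differed in 3, MRPL33, MRPL57 and MRPS33, where no probe passed. With sorafenib signs differed in 10 of the 23, and in 7 for the combination against each single drug. The 3 probes of MRPL11 gave -0.76, -0.86 and -0.70 with both drugs, and all passed. With sorafenib alone they gave -0.14, -0.44 and -0.47, in the same order. Of these only the value of -0.44 passed (adjusted p over all probes 0.0194). With givinostat the 2 probes of MRPL3 gave -0.27 (adjusted p over all probes 0.129) and -0.95 (0.00628).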
